A study of Mus musculus with 33 samples.

Results

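The 8 genes described here are immediate early genes outside the AP-1 family: the zinc-finger factors Egr1, Egr2 and Egr3, the orphan nuclear receptors Nr4a1, Nr4a2 and Nr4a3, and the immediate early response genes Ier2 and Ier3. They are listed by symbol, with no threshold on a measured value, though earlier results of these data were known when the list was drawn up, from the 26621 gene symbols of the deposited count tables. The study cultured hippocampal neural stem cells of mice at postnatal day 0.5 with bFGF and EGF at 20 ng/mL each. For RNA-seq, cells of genotype Nestin-WT and Nestin-cKO (a conditional knockout of Ythdf2, a reader of N6-methyladenosine) received 5 µM actinomycin D, which blocks transcription, for 0, 2 or 4 h, with 3 libraries in each of the 6 groups. In WT cells without actinomycin D, RNA pulled down with an antibody to N6-methyladenosine (m6A) was compared with input (3 libraries each), and RNA pulled down with an antibody to YTHDF2 was compared with input and with an IgG control (3 libraries each). All groups therefore share growth in bFGF and EGF. The labels name Nestin with both genotypes but give neither the deleted part of Ythdf2 nor the animals behind a replicate number, so p-values here measure the spread between these libraries, which may be technical.

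Immediate early genes are switched on within minutes of a growth factor or other signal, without new protein synthesis, mainly by ERK acting on serum response factor (SRF) and its partners at CArG boxes and by CREB at cyclic AMP response elements. Their transcripts are as a rule short-lived, so that the level falls soon after the signal or transcription stops. EGR proteins bind GC-rich DNA and activate or repress genes of growth and differentiation, NR4A receptors act without a known physiological ligand, and IER2 and IER3 are small proteins, of which IER3 is known for effects on cell survival and on ERK and NF-κB signalling. YTHDF2 binds m6A-modified transcripts and brings them to deadenylation and decay.

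In RefSeq (GRCm38.p6) Egr2 lies at chr10:67534469-67542188 and Egr3 at chr14:70077317-70082613. Nr4a1 lies at chr15:101253902-101274795, Nr4a2 at chr2:57106830-57124003 and Nr4a3 at chr4:48045078-48086447. Ier2 lies at chr8:84661331-84662852 and Ier3 at chr17:35821713-35822911.

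Promoter windows, from 250 bases before to 50 after an annotated start, were listed for 5 of the 8 genes: Egr2, Nr4a1, Nr4a2, Nr4a3 and Ier3. Both strands were searched for the CArG box, the full cyclic AMP response element TGACGTCA, its core TGACG (which the full element contains), the EGR site GCGTGGGCG and TATAAA. The single windows of Nr4a1, Nr4a2 and Nr4a3 each held 4 copies of TGACG or its reverse complement, whereas 20.8% of all 32851 windows held any and 0.231% held 4 or more. Of the 5 Egr2 windows, 3, which overlap, held 2 copies each. None of the 5 genes' windows held TGACGTCA or GCGTGGGCG, which occurred in 1.79% and 0.612% of all windows. A CArG box, found in 1.63% of all windows, was in 4 of the 5 windows listed for Egr2, which overlap in part and hold 2 different boxes. TATAAA (13.6% of windows) occurred once, in Nr4a2, and the Ier3 window held none of these letters. A match is a description of the sequence and not a known site. The stretches below show the repeated TGACG of the 3 receptor genes and the boxes of Egr2, with the motif in capitals on either strand. For Nr4a2 all 250 bases before the start are given. For the genes with an earlier annotated start only 30 bases are given, which for Nr4a1 and Nr4a3 hold the 2 most distal copies.
Nr4a2, chr2:57124004-57124253, minus strand: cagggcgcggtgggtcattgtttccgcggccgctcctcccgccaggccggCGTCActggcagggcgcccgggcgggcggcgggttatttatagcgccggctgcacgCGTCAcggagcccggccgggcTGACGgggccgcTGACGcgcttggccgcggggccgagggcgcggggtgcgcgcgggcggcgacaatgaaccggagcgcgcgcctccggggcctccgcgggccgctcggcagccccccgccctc
Nr4a1, chr15:101266611-101266640, plus strand: tgCGTCAatggaaccccgcgtgCGTCAcgc
Nr4a3, chr4:48045071-48045100, plus strand: gggTGACGtagcgtcccatgtCGTCAcatt
Egr2, chr10:67537787-67537816, plus strand: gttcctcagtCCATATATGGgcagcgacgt
Egr2, chr10:67537484-67537513, plus strand: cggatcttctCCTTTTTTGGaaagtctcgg

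The RNA-seq libraries held 10257329 to 21353383 reads counted to genes, the m6A series 12892222 to 28334300 and the YTHDF2 series 8419106 to 23097887. All 10 neural stem cell markers listed (Nes, Sox2, Sox9 and others) were detected at 0 h, with a summed level of 14200 to 16500 normalised CPM (reads of a gene scaled to library size) in WT and 9101 to 12190 in the libraries labelled cKO. Ythdf2 itself went against the genotype label: it was at 219, 253 and 258 CPM in the WT libraries at 0 h and at 3117, 1035 and 736 CPM in those labelled cKO. Counts are per gene, so they do not show which part of Ythdf2 the reads came from, and the groups are called by their labels throughout. Between the same groups the summed fibroblast and meningeal markers (10 of 10 detected) ran from 3.10 to 4.09 CPM in WT and from 20.9 to 70.3 CPM in the libraries labelled cKO. Of 9 neuron markers listed, 8 were among the counted gene symbols, and all 8 were detected. Their sum ran from 195 to 250 CPM in WT and from 56.2 to 75.5 CPM in the libraries labelled cKO. Astrocyte markers (6 of 6) ran from 909 to 1292 CPM and from 512 to 612 CPM. Oligodendrocyte lineage markers ran from 410 to 557 CPM (10 of 10) and from 195 to 437 CPM (9 of 10, Mag at 0). Microglial markers summed to 1.26 to 3.90 CPM with 6 of 8 at 0 in each group, and endothelial markers to 0.662 to 3.29 CPM with Cdh5 and Cldn5 at 0. In bulk samples fewer cells of a type and less RNA per cell cannot be told apart. Every genotype difference below is set against these marker differences, whose part in it was not tested.

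Of the 8 genes, 6 passed the low-count filter in each of the 3 assays. Egr3 and Nr4a3 did not. In the 18 RNA-seq libraries Egr3 had 2 reads in the libraries labelled cKO at 0 h, all in replicate 2, and Nr4a3 had 2 reads, all in replicate 1 of that group. The remaining libraries had 0 reads for each, which at these depths allows levels of up to 0.138 to 0.286 CPM (3 reads, counting error only). In the pull-down series Egr3 had 0 to 5 reads a library and Nr4a3 had 0 to 25, the highest in m6A replicate 2. No fold is given for these 2 genes.

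In untreated WT cells Egr1 was the most abundant of the set per transcript length, at 15.6 ± 1.09 TPM (the authors' depth- and length-scaled unit, mean ± SD, n = 3), followed by Ier3 at 10.2 ± 1.92 TPM and Egr2 at 5.43 ± 1.76 TPM. Nr4a1 followed at 3.41 ± 0.620 TPM, Ier2 at 1.64 ± 0.737 TPM and Nr4a2 at 0.724 ± 0.404 TPM. Egr2 and Nr4a1 lay within the sum of their SDs of each other, as did Ier2 and Nr4a2. In the libraries labelled cKO Ier3 had the highest mean, at 39.1 ± 18.6 TPM, above Egr1 at 18.2 ± 7.09 TPM, a gap within the sum of their SDs. In replicate 1 of that group Egr1 was the higher (25.9 against 18.7 TPM). Nr4a1 (4.92 ± 0.523 TPM) and Ier2 (3.95 ± 2.63 TPM) followed, and Egr2 (2.20 ± 0.673 TPM) and Nr4a2 (2.00 ± 0.614 TPM) came last. Except between Egr1 and Nr4a1, neighbours in this order differed by less than the sum of their SDs.

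**Figure D1:**
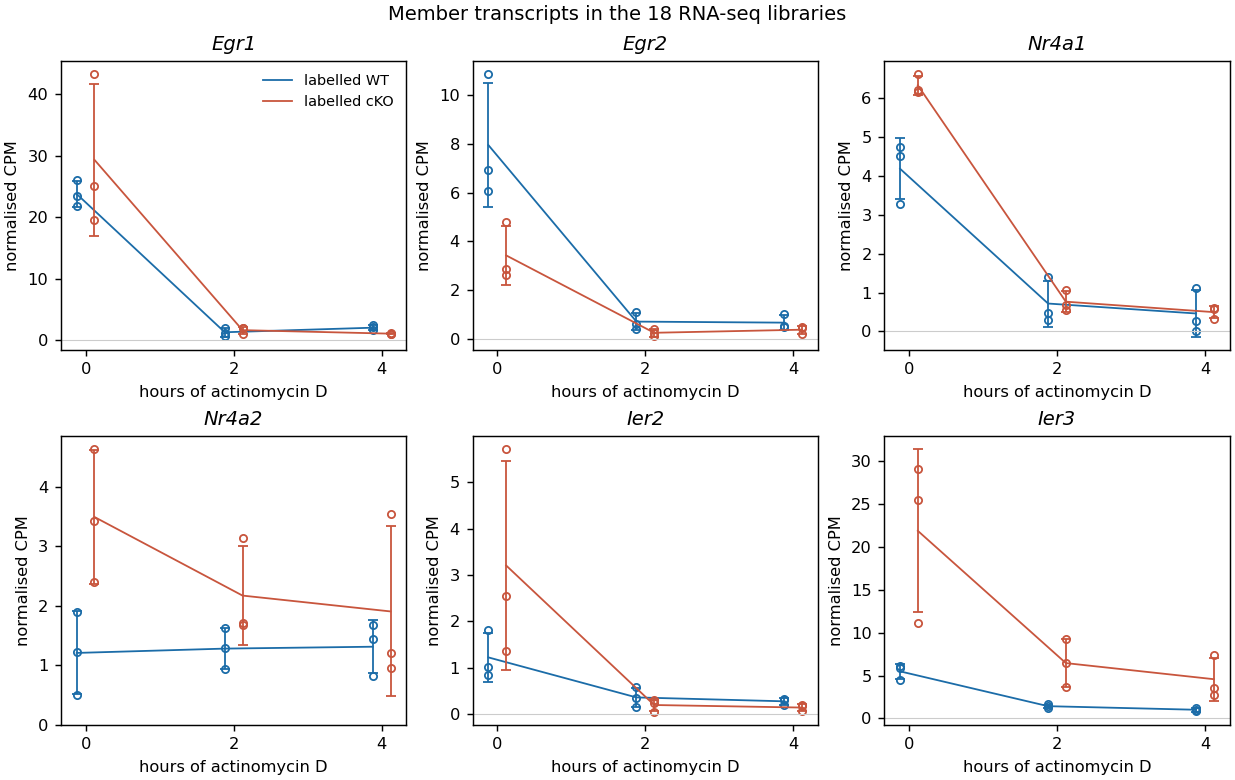
Normalised CPM (linear axes) of the 6 genes that passed the filter, against hours of actinomycin D, in the 18 RNA-seq libraries. Open circles are libraries, lines join the means and bars are SD (n = 3). Egr1, Egr2, Nr4a1, Ier2 and Ier3 are low by 2 h in both genotypes, and the WT mean of Nr4a2 stays near 1.2 to 1.3 CPM. Ier3 is higher in every library labelled cKO than in every WT library of the same time.

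The first comparison asked how the genotypes differed at each time. Ier3 had the largest log2 difference of the set at each time. At 0 h it was at 5.87, 6.15 and 4.45 CPM in WT and at 11.1, 25.5 and 29.1 CPM in the libraries labelled cKO. At 2 h it was at 1.40, 1.63 and 1.26 CPM and at 3.63, 6.48 and 9.23 CPM. At 4 h it was at 0.816, 1.24 and 0.970 CPM and at 2.75, 3.52 and 7.45 CPM. The WT values rest on 21 to 24 reads a library at 2 h and 13 to 15 at 4 h. The groups did not overlap at any of the 3 times, and replicate 1 was the lowest library labelled cKO each time. The log2 difference was 2.00 ± 0.41 (SE) at 0 h, 2.17 ± 0.44 at 2 h and 2.19 ± 0.46 at 4 h, that is 3.99-fold, 4.50-fold and 4.56-fold higher (adjusted p = 0.00489, 0.00435 and 0.00448, edgeR quasi-likelihood test with Benjamini-Hochberg adjustment over all 14029 genes tested). It was the only member called, 1 of 6 tested at each time. Over all genes tested, 7.71% were called higher at 0 h, 8.52% at 2 h and 11% at 4 h, and the median log2 difference was -0.01, 0.05 and 0.08. The call held with each single library left out. It ended when every library of WT replicate 1 was left out (adjusted p = 0.0506, 0.0521 and 0.0582 at 0, 2 and 4 h) or every library of WT replicate 3 (0.0639, 0.0581 and 0.0528), with log2 differences of 1.96 to 2.16.

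The other Ier gene, Ier2, a nuclear regulator of early transcription, was at 1.82, 0.843 and 1.01 CPM in WT at 0 h and at 5.71, 2.55 and 1.35 CPM in the libraries labelled cKO. The lowest of the latter lay below the highest WT library, and the log2 difference of 1.38 ± 0.59 was not called (adjusted p = 0.106, edgeR). At 2 h and 4 h its difference was -0.93 ± 0.73 and -0.96 ± 0.80, on 1 to 11 reads a library.

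Egr2, known for its part in hindbrain patterning and in Schwann cell myelination, ran the other way. It was at 6.07, 10.9 and 6.94 CPM in WT at 0 h and at 4.80, 2.85 and 2.63 CPM in the libraries labelled cKO, with no overlap. The log2 difference of -1.21 ± 0.44 missed the threshold (adjusted p = 0.0638, edgeR). DESeq2 gave -1.17 with an adjusted p of 0.0382. At 2 h and 4 h the difference was -1.45 ± 0.56 and -0.82 ± 0.55 (adjusted p = 0.0819 and 0.299). Without replicate 1 of the libraries labelled cKO it reached -1.53 at 0 h and -2.10 at 2 h (adjusted p = 0.0406 and 0.0343). Egr1, the best-known EGR factor and a marker of neuronal activity, was at 23.5, 21.8 and 26.0 CPM in WT at 0 h and at 43.2, 19.6 and 25.1 CPM in the libraries labelled cKO. The WT values lay inside the range of the others, with a log2 difference of 0.30 ± 0.33 (adjusted p = 0.537). At 4 h it was at 2.07, 1.62 and 2.39 CPM in WT and at 1.20, 0.960 and 1.02 CPM in the libraries labelled cKO. These groups did not overlap, but the difference of -0.94 ± 0.40 was not called (adjusted p = 0.102).

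Of the receptors, Nr4a2 (NURR1), needed for midbrain dopamine neurons, was at 1.21, 0.506 and 1.90 CPM in WT at 0 h and at 4.64, 2.40 and 3.43 CPM in the libraries labelled cKO. The groups did not overlap and the log2 difference was 1.50 ± 0.54, or 2.83-fold, and missed the threshold (adjusted p = 0.0616, edgeR). DESeq2 gave 1.55 with an adjusted p of 0.0276. Its difference was 0.73 ± 0.53 at 2 h and 0.54 ± 0.54 at 4 h (adjusted p = 0.345 and 0.494). Nr4a1 (NUR77), an early response gene of lymphocytes and many other cells, was at 4.52, 3.29 and 4.74 CPM in WT at 0 h. In the libraries labelled cKO it was at 6.21, 6.16 and 6.61 CPM, again without overlap. The difference of 0.59 ± 0.58 was not called (adjusted p = 0.487) and was 0.12 ± 0.68 at 2 h and 0.02 ± 0.76 at 4 h.

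**Figure D2:**
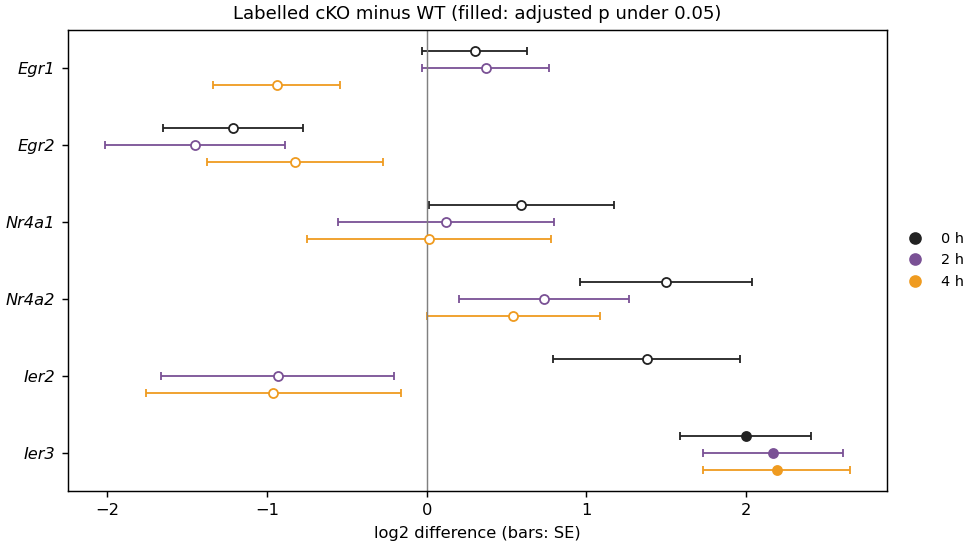
Log2 difference of the libraries labelled cKO from WT at 0, 2 and 4 h (horizontal axis). Bars are SE derived from the test, and filled points have an adjusted p under 0.05. Only the 3 Ier3 points, between 2.00 and 2.19, are filled, and the Egr2 points lie below 0 at all 3 times.

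The listed genes around the set were read in the same fit. Of 36 other immediate early genes tested, 8 rose and 1 fell in the cKO-labelled group at 0 h, with a median log2 difference of 0.83, where 7.71% of all genes were called higher and 9.89% lower. The smallest p-values belonged to Ptgs2 (2.69 ± 0.46), the cyclooxygenase of prostaglandin synthesis, Fosl2 (1.40 ± 0.28), an AP-1 subunit, and Cyr61 (2.40 ± 0.51), a matricellular protein. At 2 h 4 were higher and 2 lower, and at 4 h 3 and 2. Of all genes 8.52% were called higher and 8.54% lower at 2 h, and 11% and 9.11% at 4 h. The smallest p-values at 2 h belonged to the zinc-finger factors Klf6 (-0.87 ± 0.20) and Klf10 (-1.07 ± 0.25), both lower, and to Ctgf (7.10 ± 1.71), higher. Klf6 had been called higher at 0 h (0.72 ± 0.19). At 4 h they belonged to Klf10 (-1.40 ± 0.25), lower, and to Plk3 (1.89 ± 0.46) and Sik1 (3.46 ± 0.97), higher. Of 19 genes listed as ERK, SRF and CREB inputs and ERK feedback, 8 were higher and 1 lower at 0 h, with a median of 0.40. The lower gene was Creb1 (-1.07 ± 0.31). The higher genes were led by the phosphatase Dusp4 (2.69 ± 0.40) and the inhibitor Spry2 (1.84 ± 0.33), which damp ERK signalling, and Elk1 (1.09 ± 0.26), an SRF partner. At 2 h 6 were higher and 1 lower, and at 4 h 5 and 0. Among 7 relatives and partners tested (Ier5, Ier5l, the EGR corepressors Nab1 and Nab2, and the RXR partners of NR4A receptors), Ier5 was higher at 0 h (1.40 ± 0.45), Rxra at 2 h (1.85 ± 0.49), and Ier5 and Rxrb at 4 h (3.26 ± 0.84 and 1.19 ± 0.39).

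The second comparison followed the transcripts after transcription was blocked. These values are relative to all other RNA in a library, and no spike-in is named in the sources used here, so a level that did not change is one that fell like the bulk of transcripts. In WT, Egr1 fell from 23.5, 21.8 and 26.0 CPM at 0 h to 1.22, 2.01 and 0.628 CPM at 2 h and was at 2.07, 1.62 and 2.39 CPM at 4 h. This left 5.22%, 9.22% and 2.42% of the starting level of replicates 1, 2 and 3 at 2 h. The log2 change was -4.23 ± 0.39 by 2 h and -3.53 ± 0.38 by 4 h (adjusted p = 1.94e-06 and 1.79e-06, edgeR). It went in the libraries labelled cKO from 43.2, 19.6 and 25.1 CPM to 1.93, 0.973 and 1.98 CPM at 2 h, leaving 4.47%, 4.96% and 7.91%. At 4 h 2.78%, 4.90% and 4.07% was left, and the changes were -4.17 ± 0.39 and -4.77 ± 0.40. No treated library came near any untreated one.

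Egr2 fell alike. WT levels were 0.408, 0.619 and 1.10 CPM at 2 h and 1.00, 0.477 and 0.517 CPM at 4 h, changes of -3.46 ± 0.49 and -3.54 ± 0.50. It reached in the libraries labelled cKO 0.414, 0.108 and 0.229 CPM at 2 h, on 9, 2 and 3 reads, a change of -3.70 ± 0.54, and the change by 4 h was -3.15 ± 0.52. Nr4a1 had log2 changes of -2.58 ± 0.65 by 2 h and -3.06 ± 0.68 by 4 h in WT, and of -3.06 ± 0.65 and -3.64 ± 0.67 in the libraries labelled cKO, all 4 called. The call by 2 h in the latter ended without any library of cKO replicate 2 (-2.88, adjusted p = 0.0701), and that in WT without any library of WT replicate 1 (-2.07, 0.0800) or 3 (-2.17, 0.169). In WT it was at 0.292, 1.39 and 0.471 CPM at 2 h, so that replicate 2 kept 42.4% of its starting level against 6.45% and 9.93% in the others. At 4 h that replicate had 0 reads. The WT call at 2 h ended without the 2 h library of replicate 1 or of replicate 3 (adjusted p = 0.0683 and 0.0583).

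Ier3 fell less far than Egr1 and Egr2, a difference between genes that was not tested. In WT 23.9%, 26.4% and 28.3% of its starting level was left at 2 h, and in the libraries labelled cKO 32.7%, 25.5% and 31.8%. The log2 changes by 2 h were -1.94 ± 0.44 and -1.77 ± 0.40, and by 4 h -2.45 ± 0.46 and -2.26 ± 0.41, with an adjusted p of at most 0.00725 (edgeR). Fitted on the compared libraries alone, the change by 2 h in the libraries labelled cKO was -1.76 with an adjusted p of 0.0820. The calls by 2 h also ended without any library of WT replicate 1, 2 or 3 (adjusted p = 0.106, 0.0603 and 0.0836) or of cKO replicate 2 (0.102), at log2 changes of -1.66 to -1.95. Ier2 fell in the libraries labelled cKO from 69, 34 and 17 reads at 0 h to 5, 1 and 4 at 2 h and 3, 3 and 1 at 4 h, changes of -4.01 ± 0.69 and -4.43 ± 0.72 (adjusted p = 0.000811 and 0.000193). In WT it had 27, 10 and 17 reads at 0 h, 6, 2 and 11 at 2 h and 5, 2 and 5 at 4 h. The WT change by 2 h was -1.70 ± 0.64 and was not called (adjusted p = 0.0763). With the culture number as a replicate block it was -1.73 and was called (adjusted p = 0.0326). The WT change by 4 h was -2.09 ± 0.68 (adjusted p = 0.0204), a call that ended without WT replicate 1 at 0 h (adjusted p = 0.0932) or without replicate 1, 2 or 3 at 4 h (0.0586, 0.0791 and 0.0529).

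Nr4a2 was the exception in the set, the only gene with no change called by 4 h in either genotype. It had 6 to 32 reads a library in WT and 15 to 59 in the libraries labelled cKO. In WT it was at 1.21, 0.506 and 1.90 CPM at 0 h, 1.28, 0.929 and 1.62 CPM at 2 h and 0.816, 1.43 and 1.68 CPM at 4 h, and the 3 times overlapped throughout. The log2 change was 0.07 ± 0.55 by 2 h and 0.09 ± 0.55 by 4 h (adjusted p = 0.946 and 0.916, edgeR). These SEs are wide, so the values do not show that the transcript was stable, and its change was not tested against those of the other genes. Scaled to ribosomal protein genes, which moved the median of all genes by 4 h to -0.72 in WT and -0.64 in the libraries labelled cKO, the WT change by 4 h was -0.61 and not called. In the libraries labelled cKO Nr4a2 was at 4.64, 2.40 and 3.43 CPM at 0 h and at 1.20, 0.960 and 3.54 CPM at 4 h. This left 25.9%, 40.0% and 103%, and the change of -0.87 ± 0.52 was not called (adjusted p = 0.225). Without the 4 h library of replicate 3 it was -1.68 and was called (adjusted p = 0.0262), as it was under the ribosomal scaling (-1.55, adjusted p = 0.0335).

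**Figure D3:**
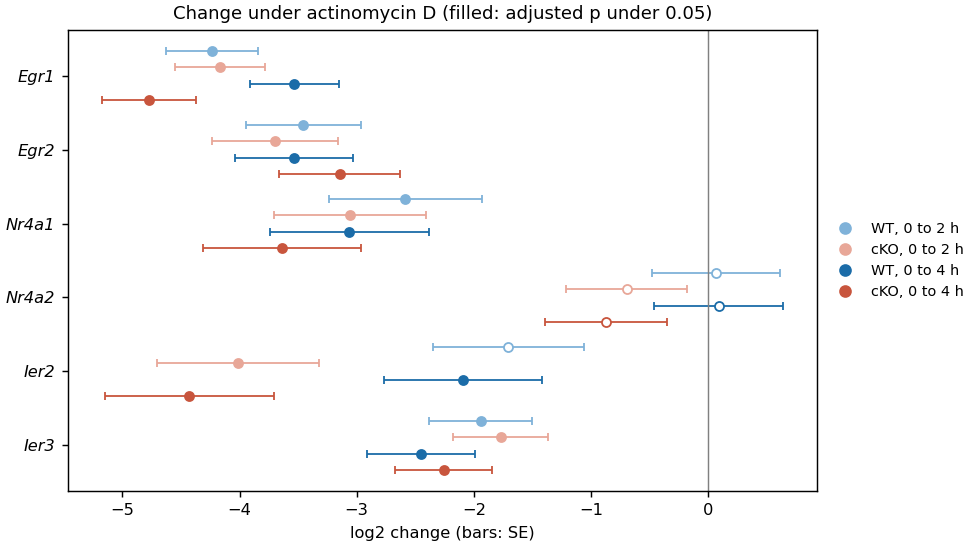
Log2 change from 0 h to 2 h and from 0 h to 4 h of actinomycin D by genotype label (horizontal axis; bars are SE; filled points have an adjusted p under 0.05). Every point of Egr1, Egr2, Nr4a1 and Ier3 is filled and lies at -1.77 or lower, the 4 Nr4a2 points are open, and Ier2 lies further left in the libraries labelled cKO than in WT.

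Counted over the 6 genes tested, 4 were lower by 2 h and 5 by 4 h in WT, against 13.7% and 24.2% of all genes called lower. With culture as a replicate block 5 were lower by 2 h, against 20.2% of all genes. In the libraries labelled cKO 5 were lower by 2 h and 5 by 4 h, against 9.85% and 18% of all genes. The median log2 change of the 6 by 2 h was -2.26 in WT and -3.38 in the libraries labelled cKO, beside 0.01 and 0.05 over all genes. Between 2 h and 4 h edgeR called 0 of 6 in either genotype, with 0 at an unadjusted p under 0.05 and 0 by DESeq2, where 2.35% of all genes were called in WT and 0.791% in the libraries labelled cKO. Of the 36 other immediate early genes, 25 were lower by 2 h and 31 by 4 h in WT, and 29 and 32 in the libraries labelled cKO. Klf6, Klf10, Sgk1 and Bhlhe40 had the smallest p-values, with Klf6 at -3.67 ± 0.21 and -5.25 ± 0.23 by 2 h. The ERK feedback genes Spry4 (-3.83 ± 0.28 in WT and -4.32 ± 0.29 in the libraries labelled cKO by 2 h), Dusp6 (-4.80 ± 0.40 and -5.47 ± 0.41) and Spry2 (-3.77 ± 0.36 and -4.15 ± 0.36) led their list. In it 8 of 19 were lower and 1 higher by 2 h in WT (3.63% of all genes were called higher), and 7 were lower in the libraries labelled cKO. Of the relatives, Ier5 and Ier5l were the 2 of 7 lower by 2 h in each genotype, and 4 of 7 were lower by 4 h in each.

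Whether the genotypes differed in the fall itself was tested as an interaction. By 2 h the difference in log2 change (labelled cKO minus WT) was 0.07 ± 0.50 for Egr1, -0.24 ± 0.65 for Egr2, -0.47 ± 0.90 for Nr4a1, -0.77 ± 0.75 for Nr4a2, -2.31 ± 0.94 for Ier2 and 0.17 ± 0.57 for Ier3. EdgeR called 0 of the 6, with 1 at an unadjusted p under 0.05 (Ier2, adjusted p = 0.9999) and 0 by DESeq2. Of all genes tested 0% were called. In slope over the 3 times, the difference ran from -0.69 ± 0.28 log2 units per hour for Ier2 to 0.07 ± 0.29 for Egr2. Again 0 of the 6 were called, with 1 at an unadjusted p under 0.05 (Ier2, adjusted p = 0.499) and 0 by DESeq2, where 0.00713% of all genes were called. For Ier3 the slope difference was 0.07 ± 0.16 per hour. The SEs are wide, so these values do not show that the genotypes lost the transcripts at the same rate. Klf6 had the smallest p of the other listed genes by 2 h (-1.58 ± 0.28, adjusted p = 0.0989).

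Across the 18 RNA-seq libraries, whose shared axis is the fall under actinomycin D, the log2 CPM of Egr1 correlated with that of Egr2 (Pearson r = 0.894), Nr4a1 (0.880) and Ier2 (0.875). Ier3 correlated less with these 4, between 0.371 with Egr2 and 0.706 with Nr4a1. Nr4a2 stood apart, with r from -0.00886 with Egr2 to 0.579 with Ier3. Outside the set the genes most like Egr1 were Zfp770 (r = 0.967), Fbxo30 (0.966) and Bhlhe40 (0.963), and those most like Egr2 were Zfp712 (0.976), Zfp719 (0.960) and Zfp939 (0.960). Nr4a1 was most like Fem1c (0.963), Herpud1 (0.953) and Tbc1d1 (0.931), and Nr4a2 like Lipt2 (0.892), Ccnk (0.880) and Slc9a3r2 (0.868). Ier2 was most like Phlda1 (0.933), Nfil3 (0.931) and 2810474O19Rik (0.929), and Ier3 like Ptchd1 (0.963), Abhd2 (0.953) and Arl4c (0.950). These are descriptions over 18 libraries that share cultures and a treatment, with no test.

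The third comparison asked which transcripts were enriched by the m6A antibody in WT cells. Egr2 was at 9.24, 12.9 and 8.11 CPM in input and at 14.0, 14.4 and 14.6 CPM in the m6A pull-down, which is 1.51-fold, 1.12-fold and 1.80-fold in replicates 1, 2 and 3. The groups did not overlap, the log2 difference was 0.50 ± 0.18, and it was not called (adjusted p = 0.0785, edgeR). Ier2 (0.17 ± 0.09) and Ier3 (0.15 ± 0.10) were higher in the pull-down in each replicate by number, by 1.04-fold to 1.23-fold, and were not called. Egr1 (-0.02 ± 0.16), Nr4a1 (-0.01 ± 0.13) and Nr4a2 (0.26 ± 0.41) went up in some replicates and down in others. EdgeR called 0 of the 6, with 1 at an unadjusted p under 0.05 (Egr2) and 1 by DESeq2 (Egr2, 0.52, adjusted p = 0.0307), where 6.06% of all genes were called higher. With the replicate number as a block edgeR called 2, Egr2 (0.51, adjusted p = 0.00616) and Ier3 (0.16, 0.0300). Under that block 2441 of all 14167 genes tested were called higher. Of the other immediate early genes, 4 of 34 were higher and 1 lower (14.3% of all genes were called lower), with Jun at 1.11 ± 0.17 and Trib1 at 0.65 ± 0.13. Dusp6 (0.81 ± 0.13) and Creb1 (0.28 ± 0.09) were the 2 of the 19 ERK, SRF and CREB genes called higher, and Mapk3 (-0.49 ± 0.11) was lower. No relative was called by edgeR, and the smallest p was that of Nab2 (0.26 ± 0.09, adjusted p = 0.0634).

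The m6A values rest on the scaling. Scaling to ribosomal protein genes moved the median log2 difference of all genes from 0.01 to 1.39 and called 12899 genes higher and 72 lower, in place of 858 and 2023. Under it all 6 genes were called. Egr1 (1.36) and Nr4a1 (1.38) lay at that median, Ier3 (1.54), Ier2 (1.56) and Nr4a2 (1.62) above it, and Egr2 (1.87) furthest above. Library size alone (median of all genes 0.22) called 3 of the 6 and gave 3627 genes higher and 1293 lower. The deposited TPM (median 0.40) called 5 of the 6 and gave 7236 and 770. Egr2 was the highest of the 6 under each of these scalings.

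**Figure D4:**
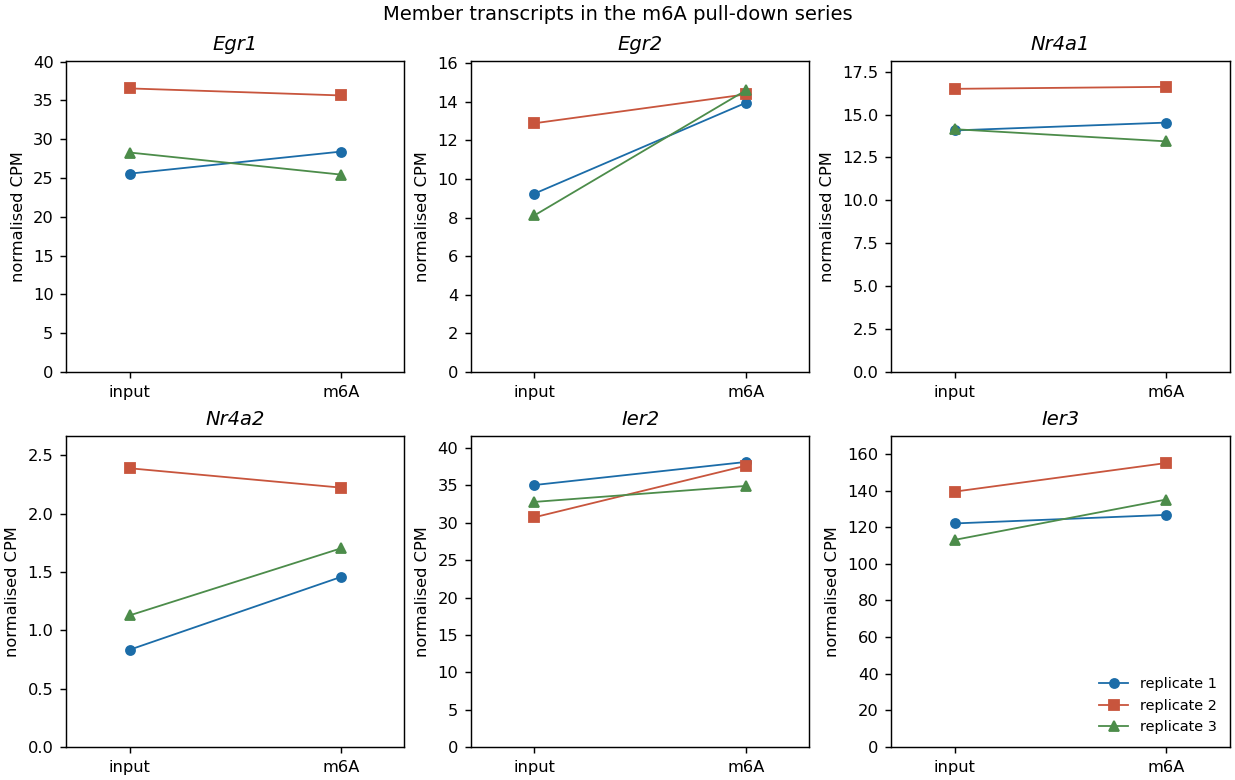
Normalised CPM (linear axes from 0) of the 6 genes in input and m6A pull-down libraries of WT cells, with lines joining libraries of the same replicate number (n = 3). The Egr2 lines rise to 14.0 to 14.6 CPM from 8.11 to 12.9 CPM, and those of Egr1 and Nr4a1 are nearly flat.

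The fourth comparison asked which transcripts came down with YTHDF2. The titles and descriptions of these libraries name input and YTHDF2 the opposite way round. The descriptions, which match the column names of the count table, were used. With the titles in their place the differences from input change sign, and those over IgG become differences of input over IgG. Ythdf2 mRNA was at 212, 249 and 232 CPM in the YTHDF2 libraries and at 85.8 to 95.8 CPM in input, which does not settle the labels.

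With the groups as the descriptions name them, Egr2 had the highest log2 difference of the set. With the titles' naming it was -1.96 over input, the lowest of the 6, and -0.05 over IgG. It was at 4.95, 22.3 and 11.2 CPM in input, 3.40, 20.4 and 16.0 CPM in IgG and 19.2, 88.1 and 42.0 CPM in the YTHDF2 pull-down of replicates 1, 2 and 3. Within a replicate number this is 3.88-fold, 3.95-fold and 3.75-fold over input, and 5.66-fold, 4.32-fold and 2.62-fold over IgG. The groups overlapped because the replicates differed in starting level, with replicate 1 lowest and replicate 2 highest in all 3 fractions. The log2 difference was 1.96 ± 0.68 over input (adjusted p = 0.0328, edgeR) and 1.91 ± 0.68 over IgG (adjusted p = 0.0919). With the replicate number as a block it was 1.95 over input and 1.96 over IgG (adjusted p = 1.29e-09 and 2.50e-09). Without the block the call over input ended in DESeq2 (1.77, adjusted p = 0.0727) and without YTHDF2 replicate 2 (1.25, adjusted p = 0.164) or 3 (2.07, 0.0507) or input replicate 1 (1.56, 0.108) or 3 (1.87, 0.0935).

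Nr4a1 was at 7.15, 15.3 and 10.8 CPM in input, 5.95, 14.6 and 10.2 CPM in IgG and 8.88, 24.9 and 16.1 CPM in the YTHDF2 pull-down. It was higher in the pull-down in every replicate number, by 1.24-fold to 1.62-fold over input and 1.49-fold to 1.71-fold over IgG. The log2 differences of 0.59 ± 0.41 and 0.70 ± 0.41 were not called without the block. They were called with the replicate block (0.54 and 0.68, adjusted p = 0.00601 and 0.00256). Egr1 was at 9.20, 35.6 and 25.5 CPM in input, 6.86, 35.5 and 26.0 CPM in IgG and 11.9, 43.6 and 37.0 CPM in the pull-down, 1.23-fold to 1.45-fold over input by number. Its differences were 0.40 ± 0.60 over input and 0.44 ± 0.60 over IgG, not called, and 0.40 and 0.51 with the replicate block, both called (adjusted p = 0.0191 and 0.00975).

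Nr4a2, on 8 to 58 reads a library, was at 1.12, 1.72 and 0.993 CPM in input, 0.486, 0.984 and 1.66 CPM in IgG and 2.66, 2.08 and 2.17 CPM in the pull-down. The pull-down lay above both other fractions without overlap, with differences of 0.84 ± 0.44 over input (adjusted p = 0.134) and 1.20 ± 0.45 over IgG (adjusted p = 0.113). Under the replicate block the difference over IgG was 1.26 and was called (adjusted p = 0.0275). Ier2 was at 9.49, 12.5 and 17.6 CPM in input and 10.03, 20.9 and 28.0 CPM in the pull-down. Its difference over input of 0.58 ± 0.38 was called with the replicate block (0.51, adjusted p = 0.00868) and without YTHDF2 replicate 1 (0.90, adjusted p = 0.0412), and over IgG it was 0.25 ± 0.37. Ier3 was the most abundant of the set here, at 165, 217 and 141 CPM in input, 211, 296 and 162 CPM in IgG and 181, 309 and 135 CPM in the pull-down. The pull-down was below IgG in 2 of 3 replicate numbers, and the differences were 0.26 ± 0.30 over input and -0.10 ± 0.30 over IgG, neither called.

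**Figure D5:**
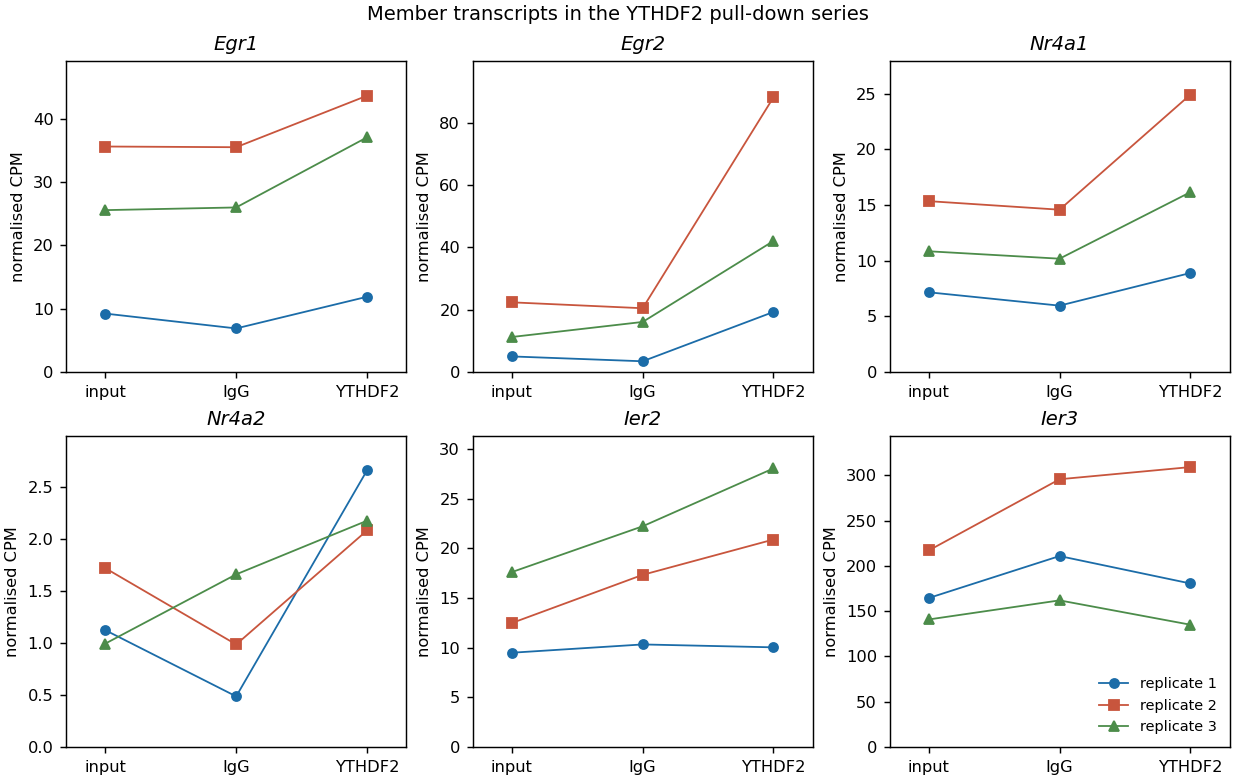
Normalised CPM (linear axes from 0) of the 6 genes in input, IgG and YTHDF2 pull-down libraries of WT cells, with lines joining libraries of the same replicate number (n = 3). Every Egr2 line rises to the pull-down (19.2, 88.1 and 42.0 CPM), and replicate 2 lies highest and replicate 1 lowest in all 3 fractions of Egr1, Egr2 and Nr4a1.

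Without the block, 1 of the 6 was called higher over input, against 30.7% of all 14255 genes tested. With the titles' naming that gene, Egr2, was called lower, as were 30.7% of all genes. Over IgG edgeR called 0 of the 6, with 2 at an unadjusted p under 0.05 (Egr2 and Nr4a2) and 0 by DESeq2, against 14.3% of all genes. With the replicate block 4 of the 6 were called over input (Egr1, Egr2, Nr4a1 and Ier2), against 38.9% of all genes, and 4 of the 6 over IgG (Egr1, Egr2, Nr4a1 and Nr4a2), against 22% of all genes. The median log2 difference of the 6 was 0.58 over input and 0.57 over IgG, beside 0.23 and -0.08 over all genes. In IgG over input edgeR called 0 of the 6, with 0 at an unadjusted p under 0.05 and 0 by DESeq2, where 37.1% of all genes were called in 1 direction or the other. With the replicate block 1 was called, Ier3, higher in IgG (0.33 ± 0.13, adjusted p = 0.0336). Under that block 3958 of all 14255 genes tested were called higher in IgG. The ratio of IgG to input by replicate number ran from 0.686 to 1.43 for the 5 others, and was 0.433, 0.573 and 1.67 for Nr4a2. The comparisons with input and with IgG share the YTHDF2 libraries.

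In the same pull-down 13 of 37 other immediate early genes were higher and 2 lower over input, where 30.7% of all genes were called higher and 17.5% lower. Over IgG 3 of the 37 were higher, where 14.3% of all genes were: Trib1 (1.54 ± 0.18), Jund (1.61 ± 0.35) and Atf3 (1.36 ± 0.35). Of the ERK, SRF and CREB genes 7 of 19 were higher over input and 6 over IgG, with the feedback inhibitors Spry1 (1.83 ± 0.28), Spry2 (1.37 ± 0.22) and Spry4 (1.60 ± 0.34) first over IgG. Of the relatives, the NR4A partner Rxra was higher over both input (1.50 ± 0.28) and IgG (1.86 ± 0.29). Ier5l was higher over both too (1.11 ± 0.32 and 1.22 ± 0.32), and Ier5 over input alone (1.31 ± 0.47), at 1.15 ± 0.46 over IgG.

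Side by side for each gene, Egr2 had the highest values of the 6 in both pull-downs (0.50 over input for m6A, and 1.96 over input and 1.91 over IgG for YTHDF2, which the titles' naming turns to -1.96 and -0.05) and was lower, though not called, in the untreated libraries labelled cKO. Ier3, the gene called higher in those libraries, had differences of 0.15 in the m6A pull-down and -0.10 in YTHDF2 over IgG. Neither was called without a block, and the m6A difference was called with it. Nr4a2, for which no change under actinomycin D was called in WT, had 0.26 and 1.20, and Nr4a1 and Egr1 had m6A values of -0.01 and -0.02 with YTHDF2 values over IgG of 0.70 and 0.44. With the titles' naming, values over IgG become the IgG over input differences with the sign turned. Those differences were -0.36 for Nr4a2, -0.11 for Nr4a1, -0.04 for Egr1 and 0.36 for Ier3. The link between these assays over 6 genes was not tested.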

How the data were processed

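Counts, and TPM scaled by the authors to depth and transcript length, were used as deposited, per gene symbol. Per the submitters' processing notes, bcl2fastq 2.17.1.14, Trimmomatic 0.32 and STAR 2.5.2a were used with build GRCm38. How reads were counted, and on which annotation, is not given in the sources used here. Per the labels' protocols, RNA-seq libraries followed SMART-seq2 and pull-down libraries a modified SMART-seq3, so levels are tested only within a table. The 33 libraries were grouped by their labels. Counts of each series were fitted with edgeR 4.0.16 (R 4.3.3; TMM scaling, filterByExpr with a minimum count of 10, quasi-likelihood test, no block), with p-values adjusted by Benjamini-Hochberg over all genes tested and called under 0.05. CPM use TMM-scaled library sizes. Each SE was derived from the test, as the absolute log2 value divided by the square root of its F statistic, and is approximate. Of these fits, only that of the genotype difference at 0 h was tried on simulated counts. Alternatives were DESeq2 1.42.0, limma 3.58.1 on log2(TPM + 1), other scalings, no filter, replicate blocks and left-out libraries. Deviations from group means correlated between same-numbered libraries in every pair of the YTHDF2 series (lowest r = 0.353) and within each RNA-seq genotype (lowest 0.126), so these numbers pair libraries. In the m6A series same-numbered pairs (median 0.341, lowest 0.0708) lay above all pairs of different numbers (highest 0.04). The numbers may therefore pair libraries there too. Across genotypes (median 0.0252) they do not. No 2 libraries of a group agreed within sampling noise. The 8 genes, and the 3 gene lists and marker lists, were chosen with earlier results of these data known. Named genes are the 8, Ythdf2, the 3 genes most correlated with each, and the 3 of each list with the smallest p.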

Additional observations from a re-analysis of the deposited data

How the results depend on the processing

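Low reads limit most of these values. After actinomycin D, Egr2, Nr4a1 and Ier2 rest on 21 reads a library or fewer, Nr4a2 in WT on 31 or fewer and Egr1 on 12 to 42. Ier3 in WT rests on 21 to 24 reads at 2 h and 13 to 15 at 4 h. In the libraries labelled cKO it had 79 to 121 and 48 to 124. The YTHDF2 comparisons without a block are limited by the spread between replicates. Leaving out all libraries of 1 culture was added after seeing the data. Of the 8 genes, the number called at 0 h between genotypes was 1, but 3 with DESeq2, 2 under ribosomal protein scaling, 4 with limma on TPM and 3 with the number as a replicate block across genotypes, where numbers do not pair. Of all 14029 genes tested, 1082 were called higher and 1387 lower, but 1712 and 1699 with DESeq2. Ribosomal scaling gave 540 and 2267, TPM 1023 and 2429, and the number as a block 1420 and 1930. In the m6A pull-down the number of the 8 called was 0, but 1 with DESeq2, 3 with library size alone, 6 under ribosomal scaling, 5 on TPM and 2 with the replicate block (Egr2 and Ier3). Of all genes there, 858 were called higher and 2023 lower, but 1269 and 2036 with DESeq2, 3627 and 1293 with library size alone. Ribosomal scaling gave 12899 and 72, TPM 7236 and 770, and the block 2441 and 2932. For YTHDF2 over input the number of the 8 called was 1, but 0 with DESeq2, 2 on TPM and 4 with the replicate block. Of all genes there, 4373 were called higher and 2490 lower, but 3740 and 3402 with DESeq2. TPM gave 5980 and 1233, and the block 5549 and 3526. For YTHDF2 over IgG the number of the 8 called was 0, but 1 without the low-count filter and 4 with the block, and for IgG over input 0, but 1 with the block. Of all genes, 2040 were called higher and 47 lower over IgG, but 2093 and 17 without the filter and 3134 and 1268 with the block. IgG over input gave 2873 and 2422, and 3958 and 3892 with the block. The block changed 1 other call, that of Ier2 in WT by 2 h (-1.73). Leaving out libraries gave 0 to 3 genes at 0 h, 0 to 2 at 2 h and 0 to 1 at 4 h between genotypes, 2 to 4 by 2 h and 4 to 5 by 4 h in WT, 3 to 5 and 5 to 6 in the libraries labelled cKO, 0 to 1 for m6A, and 0 to 2 and 0 to 1 for YTHDF2 over input and IgG.
Of the values that changed sign 1, Egr2 over input, was called, and it did so under the titles' naming of the YTHDF2 series. That naming gave over input -1.96 for Egr2, -0.59 for Nr4a1, -0.26 for Ier3, -0.40 for Egr1, -0.84 for Nr4a2 and -0.58 for Ier2, and over IgG -0.051 for Egr2 and -0.33 for Ier2. Of the values over IgG that kept their sign, that of Nr4a1 fell to 0.11 and that of Nr4a2 to 0.36. The genotype difference of Nr4a1 at 4 h was -0.012 with DESeq2 and -0.0068 without the filter. Ribosomal scaling gave it -0.16 at 4 h and -0.050 at 2 h. The WT change of Nr4a2 by 2 h and 4 h was -0.07 and -0.24 with library size alone, -0.31 and -0.61 under ribosomal scaling and -0.046 and -0.13 on TPM. On TPM the genotype difference in change by 2 h was 0.71 for Egr2 and -0.031 for Ier3, and in slope -0.049 for Ier3. For m6A, Nr4a1 and Egr1 were at 0.012 and 0.0017 with DESeq2, 0.21 and 0.19 with library size alone, 1.38 and 1.36 under ribosomal scaling and 0.44 and 0.44 on TPM, and Nr4a1 was at 0.0047 without the filter. Ier3 in YTHDF2 over IgG was 0.12 under ribosomal scaling. The cause of these changes was not tested.
Leaving out libraries moved the genotype difference from -0.090 to 0.53 for Egr1 at 0 h, from -0.27 to 0.96 for Nr4a1 at 2 h, from -0.51 to 1.66 for Nr4a1 at 4 h and from -0.27 to 0.86 for Nr4a2 at 4 h. It moved the WT change of Nr4a2 from -0.27 to 0.56 by 2 h and from -0.32 to 0.58 by 4 h. The genotype difference in change by 2 h ran from -0.43 to 0.57 for Egr1, from -0.89 to 0.26 for Egr2, from -0.998 to 0.51 for Nr4a1 and from -0.17 to 0.46 for Ier3, and in slope from -0.086 to 0.23 for Egr2, from -0.29 to 0.23 for Nr4a1 and from -0.079 to 0.15 for Ier3. For m6A the range was -0.096 to 0.077 for Nr4a1 and -0.17 to 0.15 for Egr1. For YTHDF2 it was -0.15 to 0.49 for Ier3 over input, and over IgG -0.50 to 0.16 for Ier3 and -0.094 to 0.57 for Ier2.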

Other observations

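The levels per transcript length of 2 of the genes differed widely between the tables of untreated WT cells, which were made with different library methods and normalised separately, so that no test was made. Ier3 was at 10.2 TPM in the RNA-seq libraries at 0 h, at 221 ± 24.1 TPM in the input of the m6A series and at 288 ± 85.4 TPM in the input of the YTHDF2 series (n = 3 each), which is 21.6 and 28.1 times the RNA-seq mean. Ier2 was at 1.64, 41.6 and 15.3 TPM, or 25.5 and 9.36 times. Egr1 (15.6, 18.9 and 13.8 TPM), Egr2 (5.43, 6.56 and 7.88 TPM) and Nr4a2 (0.724, 0.836 and 0.689 TPM) stayed between 0.881 and 1.45 times their RNA-seq means, and Nr4a1 was at 3.40 and 2.37 times. The RNA-seq level of Ier3 is the lowest of its 3 untreated WT levels, and the part of the library method in this was not tested. The 3.99-fold difference of the libraries labelled cKO was taken within the RNA-seq libraries, which share a method.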
